A study of Mus musculus with 4 samples.

Results

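The renin-angiotensin and kinin genes described here were 7 genes chosen by symbol from the table of lung gene expression, Ace, Agt, Agtr1a, Agtr2, Mme, Enpep and Bdkrb2, and all 7 had a row among its 17780 genes. The lungs came from male mice, C57BL/6 in the labels and C57BL/6J in the study's methods, that were 6 to 7 weeks old on purchase and were dosed orally on weekdays, 5 times per week, with 0.5% carboxymethylcellulose as vehicle, with amiodarone at 300 mg per kg, with dabigatran, given as dabigatran etexilate, at 60 mg per kg, or with both drugs. Amiodarone is an antiarrhythmic drug known for lung toxicity, and dabigatran blocks thrombin. The labels give 28 days of treatment, and the study's methods date the tissue to day 26. Poly(A) RNA of lung tissue was sequenced in 1 library per group, so no group has a replicate, no p-value is given, and each range in parentheses is an exact 95% counting interval (Clopper-Pearson, from read numbers) that covers counting error only. Ranges of ratios of ratios are approximate instead, from the same reads on the log scale.

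Angiotensinogen, the product of Agt, is cut by renin to angiotensin I, and Ace, which sits on the capillary endothelium of the lung, trims this to the vasoconstrictor angiotensin II and also inactivates bradykinin. Angiotensin II acts on the type 1 receptor encoded by Agtr1a, which drives contraction and growth, and on the receptor encoded by Agtr2, which often opposes it. Enpep, or aminopeptidase A, and Mme, or neprilysin, are membrane peptidases that shorten angiotensins, and Bdkrb2 encodes the constitutive bradykinin receptor.

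Reads assigned to genes summed to between 17498486 and 18903401 per library. All 8 markers of alveolar type 2 cells, all 10 of endothelium and all 5 of airway epithelium had at least 1 FPKM (fragments scaled by transcript length and by the library's reads) in every library. Summed macrophage markers were at 96.8 FPKM in the vehicle library, 181 with amiodarone, 99.4 after dabigatran and 210 with both drugs. Neutrophil markers were at 93.9, 596, 70.7 and 433 FPKM in the same order, smooth muscle markers at 598, 376, 568 and 407 FPKM, and cardiac muscle markers at 1601, 858, 1113 and 757 FPKM. In whole tissue, fewer cells of a type and less RNA per cell cannot be told apart.

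The 7 genes covered a wide range of levels, and their order by FPKM was the same in all 4 libraries. Ace was far above the rest, followed by Enpep, Mme, Agtr1a, Bdkrb2 and Agt, with Agtr2 last. With vehicle, 1.28% of genes were at or above the level of Ace, and 70.9% were at or above that of Agt. The counting intervals of neighbours in this order did not overlap in the treated libraries. In the vehicle library those of Bdkrb2, from 1.92 to 2.66 FPKM, and of Agt, from 1.08 to 1.96 FPKM, overlapped.

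**Figure D1:**
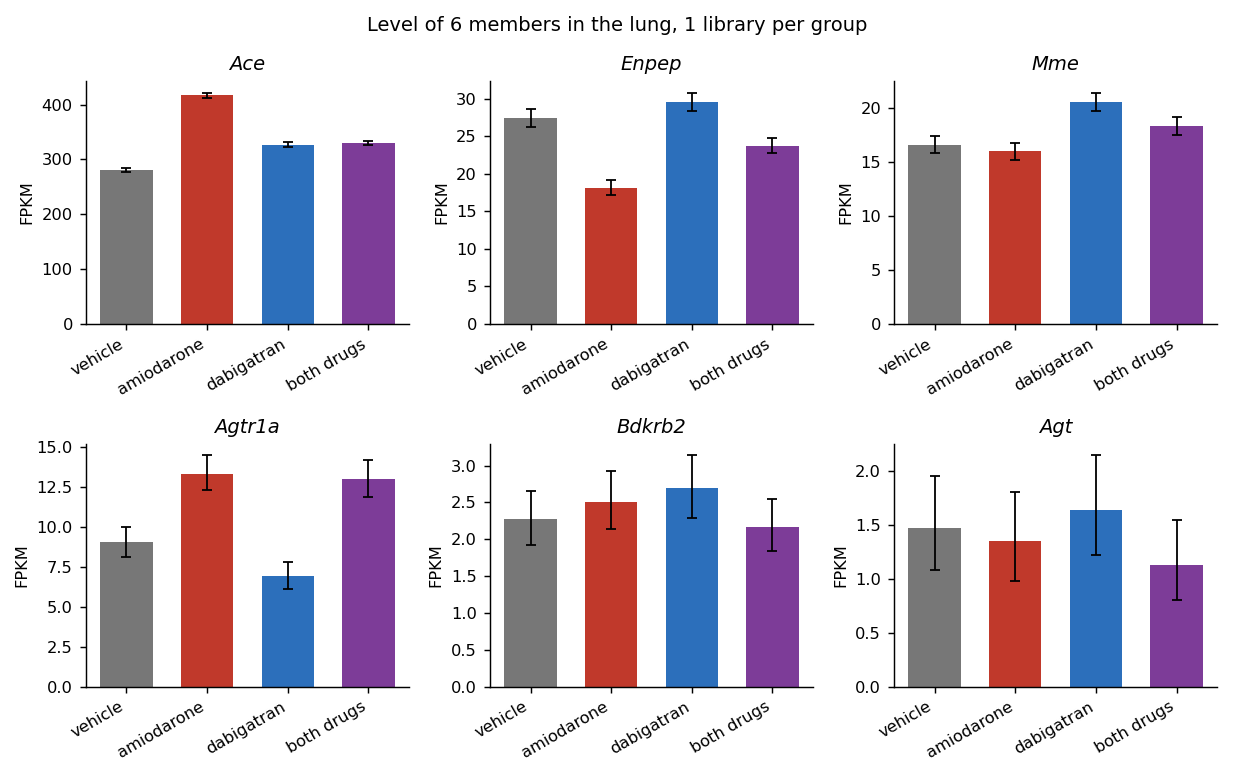
Level of 6 of the 7 genes in FPKM (vertical axes, each from 0) in the vehicle, amiodarone, dabigatran and combination libraries, with bars for the single library of each group and lines for the 95% counting interval. Ace was highest with amiodarone at 417.61 FPKM, Enpep was lowest there at 18.14 FPKM, and Agtr1a stood at 13.35 and 13.01 FPKM in the libraries with amiodarone against 9.04 and 6.92 FPKM in those without it.

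Ace lies on chromosome 11 of GRCm38.p6 from 105967948 to 105989964. Besides the start used in somatic tissue, the gene has a start inside the gene that is known from the testis, and the bases before both starts are shown because the gene had the highest level of the group. The windows are the 250 bases before each start on the plus strand, from RefSeq, and capitals mark motifs searched on both strands. The GC box was searched as GGGCGG. The letters TATAAA were taken as a TATA box, and a CCAAT box was any match to its name.

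Ace, upstream start, chr11:105967698-105967947: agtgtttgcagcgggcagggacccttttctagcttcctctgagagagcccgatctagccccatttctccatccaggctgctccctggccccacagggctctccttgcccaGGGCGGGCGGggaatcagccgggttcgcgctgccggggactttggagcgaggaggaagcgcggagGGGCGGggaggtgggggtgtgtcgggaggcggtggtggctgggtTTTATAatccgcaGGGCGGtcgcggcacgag

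Ace, internal start, chr11:105974939-105975188: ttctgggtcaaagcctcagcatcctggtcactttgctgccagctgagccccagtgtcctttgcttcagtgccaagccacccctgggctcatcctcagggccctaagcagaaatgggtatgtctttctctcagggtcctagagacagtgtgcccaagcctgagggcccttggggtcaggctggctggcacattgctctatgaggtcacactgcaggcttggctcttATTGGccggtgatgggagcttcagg

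The upstream window held 4 GC boxes, at -140, -136, -75 and -18 from the start, of which the pair at -140 and -136 overlap, and the letters of a TATA box on the opposite strand at -31. Its GC content was 67.2%, and it had 19 CpG dinucleotides against a median of 6.00 over 32851 promoter windows. The internal window had a single CpG and no GC box, and its only match was a CCAAT box on the opposite strand at -25. Over all promoter windows, 32.7% held a GC box, 12.4% a TATA box and 33.8% a CCAAT box.

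Ace was at 280.63 FPKM from 21872 reads in the vehicle library, 417.61 FPKM from 34151 reads with amiodarone, 326.62 FPKM from 26647 reads after dabigatran and 329.99 FPKM from 27327 reads with both drugs. The amiodarone library stood above the other 3, the vehicle library below them, and the remaining libraries lay close together. Amiodarone against vehicle gave a ratio of 1.49 (1.46 to 1.51), and 5.54% of the tested genes, those with at least 1 FPKM in either library, had a higher ratio. Rescaled by the median ratio over genes it was 1.54 (1.51 to 1.57), past the 1.5-fold used as size rule. Dabigatran alone gave 1.16 (1.14 to 1.18) against vehicle, and the combination was at 0.790 (0.778 to 0.803) of the amiodarone library. The combination stayed above vehicle, at a ratio of 1.18. Against dabigatran alone the combination was at 1.01 (0.993 to 1.03), so the higher level with amiodarone was seen without dabigatran and not with it. The ratio of these amiodarone ratios, with dabigatran over without, was 0.679 (0.663 to 0.695), while 36.5% of 12723 genes had such a ratio of ratios beyond counting error. The interval of Ace is narrow because of its many reads, and the estimate of its transcript length also matters at this precision. Reads divided by the library total gave 0.963 (0.947 to 0.980) for the combination against dabigatran, on the other side of 1, and rescaling gave 1.02, just beyond counting error.

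The 10 endothelial markers summed to 1394 FPKM in the vehicle library, 1521 with amiodarone, 1600 after dabigatran and 1333 with both drugs. Their sum was therefore 1.09 times vehicle with amiodarone, where Ace was at 1.49 times. It was 0.877 times amiodarone with the combination, where Ace was at 0.790 times. For dabigatran against vehicle the sum gave 1.15 and Ace 1.16. For the combination against dabigatran the sum gave 0.833 and Ace 1.01. The endothelial list did not move as one. Of its 10 genes, 6 were higher and 3 lower beyond counting error with amiodarone against vehicle, beside 19.6% and 30.1% of all tested genes. Car4, a carbonic anhydrase of lung capillaries, went from 146.27 to 193.83 FPKM, whereas the apelin receptor gene Aplnr went from 24.18 to 7.62 FPKM. Gpihbp1, also of this list, was at 145.49, 211.41, 169.71 and 180.33 FPKM in the vehicle, amiodarone, dabigatran and combination libraries. Its ratio for amiodarone against vehicle was 1.45 (1.37 to 1.54), near that of Ace. The part of endothelial RNA in the ratios of Ace was not tested.

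Enpep lies on chromosome 3 from 129269177 to 129332749 on the minus strand. The bases before its start are shown because it had the lowest ratio of the measurable members with amiodarone against vehicle, and capitals mark the same motifs.

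Enpep, chr3:129332750-129332999, minus strand: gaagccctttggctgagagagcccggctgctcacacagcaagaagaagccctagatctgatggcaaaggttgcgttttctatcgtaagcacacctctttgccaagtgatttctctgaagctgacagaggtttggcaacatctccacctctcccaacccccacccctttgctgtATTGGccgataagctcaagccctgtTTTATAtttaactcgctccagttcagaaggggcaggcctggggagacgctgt

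This window held the letters of a TATA box at -52 and of a CCAAT box at -77, both on the opposite strand, no GC box and 6 CpG dinucleotides, at a GC content of 52.4%.

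Enpep was at 27.36 FPKM in the vehicle library, 18.14 with amiodarone, 29.58 after dabigatran and 23.74 with both drugs, from 1414 to 2185 reads. The libraries with amiodarone were below those without it, and the combination lay between amiodarone alone and vehicle. The ratio of amiodarone to vehicle was 0.663 (0.619 to 0.710), with 7.04% of tested genes lower, and that of the combination to dabigatran was 0.803 (0.754 to 0.854). These pairs share no library. The combination was at 1.31 (1.22 to 1.40) of amiodarone and at 0.868 (0.814 to 0.925) of vehicle, and dabigatran alone at 1.08 (1.02 to 1.15) of vehicle. The ratio for amiodarone was nearer to 1 with dabigatran, by a ratio of ratios of 1.21 (1.10 to 1.33). Of 12723 genes, 36.5% had a ratio of ratios beyond counting error. After rescaling the libraries by the median ratio over genes, amiodarone against vehicle was at 0.686 (0.640 to 0.734), no longer past 1.5-fold.

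Mme, on chromosome 3 from 63295211 to 63383713, was at 16.59 FPKM in the vehicle library, 15.95 with amiodarone, 20.53 after dabigatran and 18.31 with both drugs, from 1665 to 2080 reads. Its libraries with dabigatran were above those without it. Dabigatran alone gave 1.24 (1.16 to 1.32) against vehicle, and adding dabigatran to amiodarone gave 1.15 (1.08 to 1.23). Amiodarone against vehicle gave 0.961 (0.898 to 1.03), within counting error, and the combination against dabigatran gave 0.892 (0.838 to 0.949). The ratio of ratios of Mme was 0.928 (0.847 to 1.02), within counting error.

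Of the 3 peptidases, Enpep was lower in each library with amiodarone than in its partner without it, Mme was higher in each library with dabigatran, and Ace was highest with amiodarone alone. As levels per length, Ace exceeded Enpep 10.3 times with vehicle, 23.0 times with amiodarone, 11.0 times with dabigatran and 13.9 times with both drugs.

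**Figure D2:**
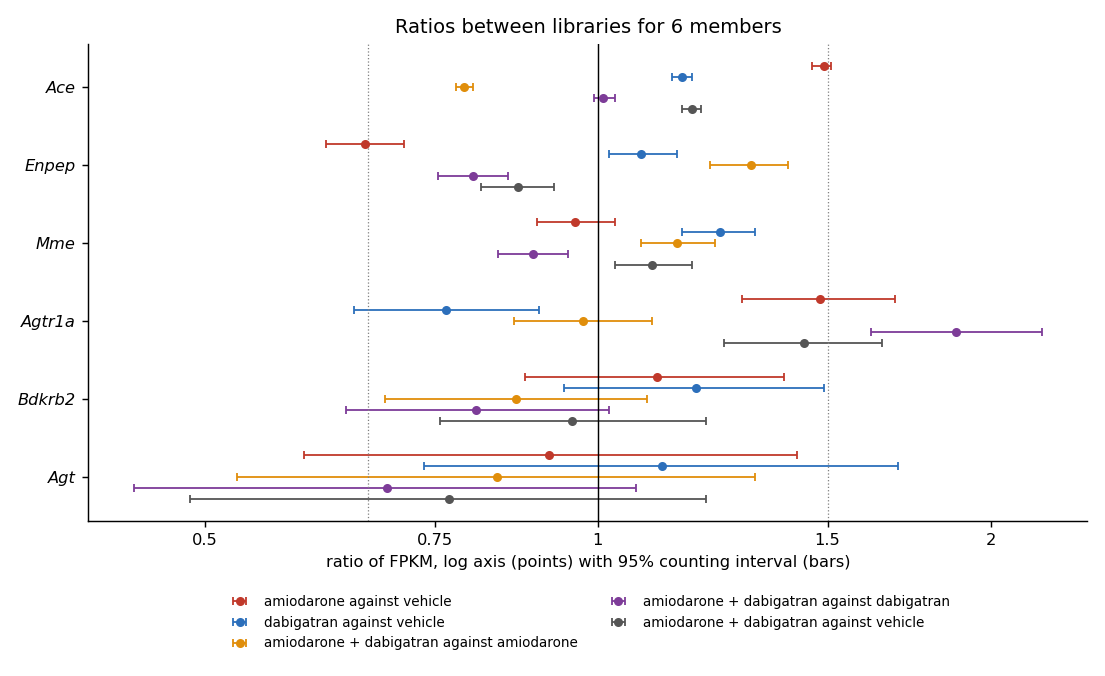
Ratio of FPKM between libraries for 6 genes on a log axis, with a point for each of 5 comparisons and lines for the 95% counting interval. Dotted lines mark 1.5-fold in either direction. Agtr1a at 1.88 (combination against dabigatran) and Enpep at 0.663 (amiodarone against vehicle) lie past them, Ace at 1.49 and Agtr1a at 1.48 (amiodarone against vehicle) lie just inside, and all intervals of Bdkrb2 and Agt span 1.

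Agtr1a, on chromosome 13 from 30336356 to 30382867, was at 9.04 FPKM with vehicle from 346 reads, 13.35 with amiodarone from 546 reads, 6.92 with dabigatran from 263 reads and 13.01 with both drugs from 533 reads. The libraries with amiodarone were nearly equal and stood above the libraries without it. Amiodarone against vehicle gave 1.48 (1.29 to 1.69), and the combination against dabigatran, which uses a different pair of libraries, gave 1.88 (1.62 to 2.19), with 2.26% of tested genes higher. After the same rescaling the first of these was 1.53 (1.33 to 1.75), past 1.5-fold. The combination against amiodarone gave 0.975 (0.863 to 1.10), within counting error. Dabigatran alone gave 0.765 (0.650 to 0.901) against vehicle, with 3.86% of tested genes lower. The larger ratio in the presence of dabigatran therefore has the lower level of the dabigatran library as its base. The ratio of ratios was 1.27 (1.04 to 1.55), where 36.5% of 12723 genes had one beyond counting error.

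Across the 4 libraries the highest level of Agtr1a was 1.93 times its lowest, and 3.78% of 11488 genes with at least 1 FPKM and 100 reads in every library spread wider. The genes whose centred log2 levels lay closest to those of Agtr1a were Tmem268, Ccr2 and Slc11a1, at distances of 0.07, 0.10 and 0.11. Ccr2, a chemokine receptor gene of monocytes, was at 8.52, 13.59, 7.1 and 13.08 FPKM in the vehicle, amiodarone, dabigatran and combination libraries. For Enpep the closest were Smo, Sod3 and Tmem8b, at 0.04, 0.06 and 0.06. Sod3, which encodes the extracellular superoxide dismutase, was at 336.01, 215.81, 355.17 and 276.39 FPKM. These distances are a description over 4 libraries.

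The 8 pericyte markers stand for cells in which Agtr1a is commonly found. They summed to 167, 171, 148 and 156 FPKM in the vehicle, amiodarone, dabigatran and combination libraries. The ratio of sums was 1.02 for amiodarone against vehicle and 1.05 for the combination against dabigatran. The list did not move as one. In the first pair Trpc6 at 1.53 (1.32 to 1.78) and Lamc3 at 2.02 (1.77 to 2.31) were higher beyond counting error, and 1 gene was lower. In the second pair 2 were higher and 3 lower. Among all tested genes 19.6% were higher and 30.1% lower in the first pair, and 19.5% and 23.5% in the second. The counts of the lists below are read beside these same shares. All genes were not matched to the markers by reads, on which counting error depends. The 10 fibroblast markers summed to 2090, 1834, 1993 and 1994 FPKM in the same order. Inmt alone was at 1513.91 FPKM with vehicle, so it dominates this sum. Of the 10 genes, 9 were lower and 0 higher beyond counting error for amiodarone against vehicle. For the combination against dabigatran 6 were lower and 1 was higher. The 6 smooth muscle markers gave 0.628 and 0.717 for the same pairs. The 8 macrophage markers gave 1.87 and 2.11, with 7 and 8 genes higher beyond counting error, and neutrophil markers gave 6.35 and 6.12. Both lists rose in these pairs, as Agtr1a did. For the combination against amiodarone macrophage markers gave 1.16 and neutrophil markers 0.726, where Agtr1a was at 0.975. For dabigatran against vehicle they gave 1.03 and 0.753, where Agtr1a was at 0.765. All 6 smooth muscle markers were lower in both pairs, as Enpep was, and several other lists fell there too. Adipocyte markers gave 0.366 and 0.430, cardiac muscle markers 0.536 and 0.680, lymphocyte markers 0.461 and 0.746, and airway epithelium markers 0.598 and 0.972. For the combination against amiodarone, Enpep was at 1.31 and these lists, in the order named, at 1.08, 1.85, 0.883, 1.53 and 1.31. Fibroblast markers were at 1.09 there, with 8 genes higher and 0 lower beyond counting error. Of all tested genes 21.2% were higher and 15.0% lower in that comparison. Mesothelium markers gave 0.490 and 1.13 in the pairs above, and 2.28 for the combination against amiodarone. The part of these cell types in the ratios of Agtr1a and Enpep was not tested.

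**Figure D3:**
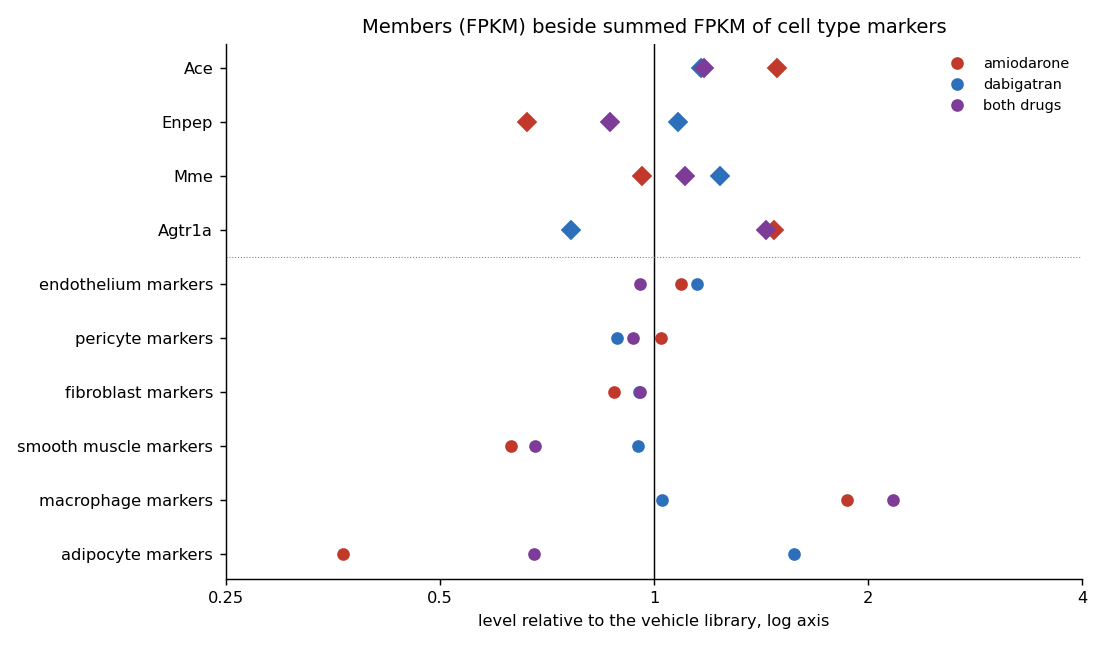
Level relative to the vehicle library on a log axis for 4 genes (diamonds) and for summed markers of 6 cell types (circles), in the amiodarone, dabigatran and combination libraries. With amiodarone Ace stood at 1.49 beside endothelial markers at 1.09, and Agtr1a at 1.48 beside pericyte markers at 1.02 and macrophage markers at 1.87.

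Agtr1a was the only angiotensin II receptor gene with more than traces of RNA in these 4 libraries. Agtr2, on chromosome X from 21484624 to 21488833, had 1 read with amiodarone, 1 read with both drugs and 0 reads in the other 2 libraries, and a count of 0 allows up to 3 reads, or 1.71e-05% of the reads with vehicle and about 0.0600 FPKM. With 1 read, the upper counting bound was 0.111 FPKM. Reads of Agtr2 numbered at most 1 in any library, and no ratio is given. Agtr1b, the close copy of Agtr1a, had 1, 6, 13 and 4 reads in the vehicle, amiodarone, dabigatran and combination libraries, and reads that fit both copies may have been divided between them. Mas1, the receptor gene of an opposing angiotensin peptide, stayed below 1 FPKM with 28, 12, 11 and 8 reads in this order.

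Agt, on chromosome 8 from 124556587 to 124569706, was at 1.47, 1.35, 1.64 and 1.13 FPKM in the vehicle, amiodarone, dabigatran and combination libraries, from 38 to 52 reads. These libraries could not be told apart at this depth. The widest contrast, the combination against dabigatran, was at 0.689 (0.441 to 1.07). Adipocyte markers, for a known source of Agt, summed to 83.4, 30.5, 131 and 56.5 FPKM in the same order, and hepatocyte markers to between 0.28 and 2.94 FPKM, with none of 6 at 1 FPKM in all libraries.

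Bdkrb2, on chromosome 12 from 105563172 to 105595244, was at 2.27, 2.51, 2.69 and 2.17 FPKM in the vehicle, amiodarone, dabigatran and combination libraries, from 149 to 162 reads. All 5 of its ratios lay within counting error, from 0.807 (0.641 to 1.02) for the combination against dabigatran to 1.19 (0.942 to 1.49) for dabigatran against vehicle. Its reads per unit of FPKM, after depth, were 0.882 to 0.962 times those of the vehicle library, and the transcript length estimate enters the FPKM. By reads over the library total, dabigatran against vehicle was at 1.04 (0.831 to 1.31). Bdkrb1, the bradykinin receptor gene that is induced by injury, was at 3.16 FPKM from 71 reads in the vehicle library, 2.62 from 63 reads with amiodarone, 3.43 from 78 reads after dabigatran and 1.44 from 35 reads with both drugs. The combination stood below the other 3 libraries, at 0.550 (0.353 to 0.844) of amiodarone and 0.420 (0.273 to 0.633) of dabigatran.

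The counts over the 6 measurable members are read against the share of all tested genes in the same comparison. With amiodarone against vehicle, Ace and Agtr1a were higher and Enpep was lower beyond counting error, while 19.6% of 13402 genes were higher and 30.1% lower, 49.7% in all. Enpep alone was also past 1.5-fold, as were 5.27% of genes upward and 6.86% downward, 12.1% in all. The lean of these calls toward lower, 706 genes higher and 920 lower, was gone after rescaling, with 790 each. With dabigatran against vehicle, Ace, Mme and Enpep were higher and Agtr1a was lower, while 15.2% of 13373 genes were higher and 13.4% lower, 28.6% in all. None of the 6 passed 1.5-fold there, as 2.38% of genes did. For the combination against amiodarone, Mme and Enpep were higher and Ace was lower, while 21.2% of 13261 genes were higher and 15.0% lower, 36.2% in all. Again 0 of 6 passed 1.5-fold, against 4.05% of genes. For the combination against dabigatran, Agtr1a was higher and Mme and Enpep were lower, while 19.5% of 13379 genes were higher and 23.5% lower, 43.0% in all. Agtr1a was past 1.5-fold, as were 4.23% of genes upward and 4.07% downward, 8.30% in all. For the combination against vehicle, Ace, Agtr1a and Mme were higher and Enpep was lower, while 20.0% of 13390 genes were higher and 22.6% lower, 42.6% in all. There 0 of 6 passed 1.5-fold, against 8.69% of genes. The median log2 ratio of the 6 genes was 0.04, 0.19, -0.12, -0.24 and 0.04 in these comparisons, and that of all tested genes was -0.05, 0.00, 0.03, -0.01 and -0.01. Several comparisons share a library and are not independent of each other. The shares of all genes were not matched to the members by reads, on which counting error depends.

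Of 62 further genes of these peptide systems, 57 had a row in the table, and Ren1, Mrgprd, Cpb2, Cyp11b2 and Tac1 were not analysed here. With amiodarone against vehicle 46 were tested, of which 15 were higher and 17 lower beyond counting error, with a median log2 ratio of -0.01, while 19.6% of all tested genes were higher and 30.1% lower. With dabigatran against vehicle 15 of 44 were higher and 3 lower, against 15.2% and 13.4% of all genes. With the combination against amiodarone 12 of 45 were higher and 15 lower, against 21.2% and 15.0%. Amiodarone against vehicle and the combination against dabigatran share no library and can be set side by side. Of 44 genes tested in both, 9 were higher beyond counting error in both pairs (20.5%) and 15 lower in both (34.1%), while the shares among 13237 genes were 10.4% and 13.5%. After rescaling by the median ratio over genes, 9 were higher in both and 10 lower in both (22.7%), with 12.3% and 11.3% among all genes. A gene with more reads passes counting error at a smaller ratio, and all genes were not matched to these genes by reads. The difference in shares is therefore not read as a trait of these peptide systems.

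**Figure D4:**
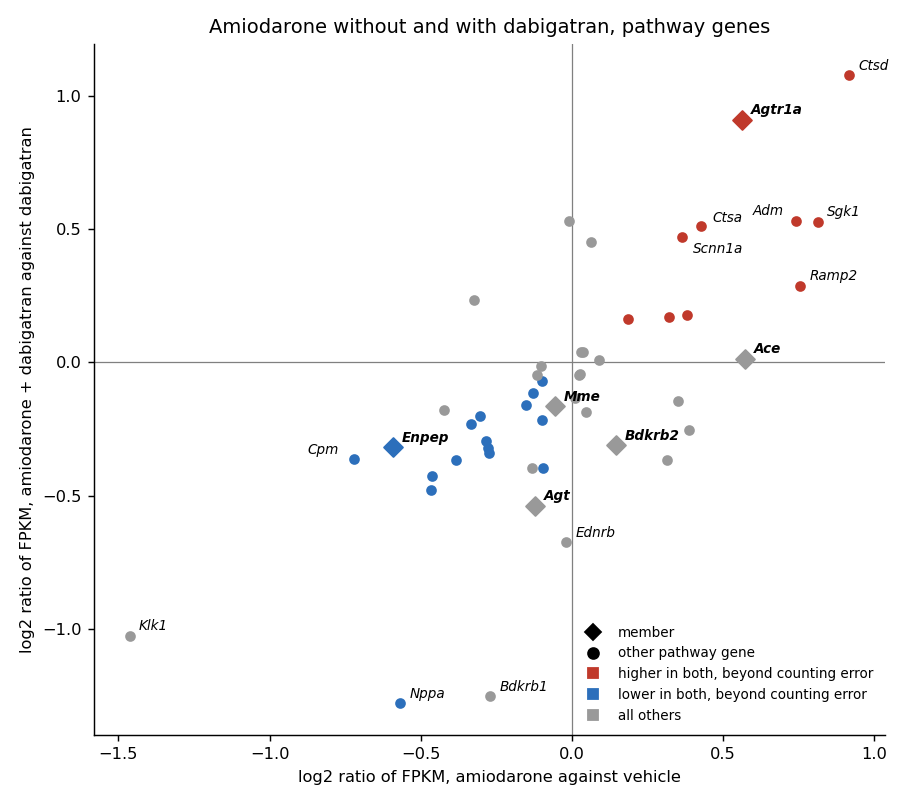
Log2 ratio of FPKM for amiodarone against vehicle (horizontal) and for amiodarone + dabigatran against dabigatran (vertical), for 6 members (diamonds) and 44 further pathway genes (circles). Red marks genes higher and blue genes lower beyond counting error in both pairs. Agtr1a is red in the upper right, as are 9 further genes, and Enpep is blue in the lower left, as are 15. Ace lies far right near the horizontal line.

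The counts by list that follow are for amiodarone against vehicle, where 19.6% of all tested genes were higher and 30.1% lower beyond counting error, and the lists are too short to read a share from. Among 6 tested genes of angiotensin formation, 2 were higher and 2 lower. One of the higher genes, Atp6ap2, encodes the prorenin receptor, which is not an enzyme, and it was at 27.04 FPKM with vehicle and 35.22 with amiodarone. Ctsd, the gene of a lysosomal protease and the other higher gene, was the most abundant of the list with vehicle and went from 261.94 FPKM with vehicle to 494.63 with amiodarone, and from 287.08 with dabigatran to 605.79 with both drugs. Its ratios were 1.89 (1.84 to 1.94) and 2.11 (2.06 to 2.16). The tissue kallikrein gene Klk1 was at 1.46 FPKM from 23 reads with vehicle and 0.53 FPKM from 9 reads with amiodarone. It was counted as a lower gene in this list and not among the kinin genes.

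Of 8 tested genes of angiotensin breakdown, 1 was higher and 3 lower beyond counting error with amiodarone, and none passed 1.5-fold. Ctsa, or cathepsin A, was the most abundant with vehicle at 66.76 FPKM and had ratios of 1.35 (1.29 to 1.40) for amiodarone against vehicle and 1.43 (1.37 to 1.49) for the combination against dabigatran. Anpep, or aminopeptidase N, which takes up where Enpep leaves off, had 0.810 (0.763 to 0.859) and 0.869 (0.820 to 0.920). Of 5 receptor partners tested, none was higher and 2 were lower with amiodarone, and Mtus1, the most abundant, was at 72.30 FPKM in the vehicle library against 72.75 FPKM after amiodarone.

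On the kinin side, Serping1, which encodes the C1 inhibitor that holds plasma kallikrein in check, was the most abundant of its list at 295.49 FPKM with vehicle and had ratios of 0.933 (0.906 to 0.960) and 0.953 (0.927 to 0.980) for amiodarone against vehicle and the combination against dabigatran. The kininogen gene Kng2 had 2.46 estimated reads in the vehicle library, 30.94 with amiodarone, 4 after dabigatran and 17 with both drugs, a ratio of 11.7 (3.66 to 124) for amiodarone against vehicle. Kng2 and Kng1 are close copies whose reads were divided by estimation, so the split is uncertain, and Kng1 had between 0 and 3.54 reads. Among 7 tested genes of kinin breakdown, 2 were higher and 4 lower beyond counting error with amiodarone, beside 19.6% and 30.1% of all genes. Cpm, a membrane carboxypeptidase that removes the last arginine of kinins, went from 38.08 FPKM with vehicle to 23.11 with amiodarone, 40.58 with dabigatran and 31.55 with both drugs. Its ratios were 0.607 (0.575 to 0.640) for amiodarone against vehicle and 0.777 (0.741 to 0.816) for the combination against dabigatran. Ece1, the endothelin-converting enzyme and the most abundant of that list, was at 104.19, 133.01, 118.68 and 107.25 FPKM, highest with amiodarone alone like Ace.

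In the aldosterone arm, 5 of 7 tested genes were higher and 2 lower beyond counting error with amiodarone, beside 19.6% and 30.1% of all genes. Sgk1, a kinase gene induced by mineralocorticoids and glucocorticoids, was at 71.67 FPKM with amiodarone where vehicle had 40.79 FPKM, 1.76 times as high (1.66 to 1.86), and had 1.44 (1.36 to 1.53) for the combination against dabigatran. Scnn1a, a subunit of the epithelial sodium channel and the most abundant of this list, had 1.29 (1.26 to 1.32) and 1.39 (1.36 to 1.42). Hsd11b2, which protects the mineralocorticoid receptor from glucocorticoids, had 24 reads in the vehicle library, 62 with amiodarone, 28 after dabigatran and 31 with both drugs.

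Of the peptide systems that neprilysin degrades, Ramp2, a subunit of the adrenomedullin receptor that is abundant in endothelium, went from 545.04 FPKM with vehicle to 920.08 with amiodarone, 1.69 times as high (1.64 to 1.74), and stood at 1.22 (1.19 to 1.26) for the combination against dabigatran. Adm, the gene of adrenomedullin, was at 3.71 FPKM from 86 reads with vehicle and 6.2 FPKM from 154 reads with amiodarone, 1.67 times as high and beyond counting error, and at 1.45 (1.10 to 1.91) for the combination against dabigatran. The endothelin receptor gene Ednrb was at 31.06, 30.66, 37.85 and 23.72 FPKM, and the combination was at 0.627 (0.589 to 0.667) of dabigatran. The natriuretic peptide receptor gene Npr3 was at 9.28, 12.13, 9.37 and 7.86 FPKM, and the combination was at 0.648 (0.597 to 0.703) of amiodarone. Nppa, the atrial natriuretic peptide gene, was at 79.95, 53.96, 76.46 and 31.50 FPKM, and the summed cardiac muscle markers, a list that holds Nppa, had the same order of libraries. Their part in these levels was not tested.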

How the data were processed

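Expression was measured by RNA-Seq of poly(A) RNA from lung, with 1 library per treatment group, mapped to groups by the labels. For mapping, the authors used HISAT 2.0.4 (genome GRCm38.p6) and Bowtie2 2.2.5 (gene sequences), and RSEM 1.2.8 gave the expression values. The deposited table gives estimated counts of reads and a normalized value per gene. The authors' methods do not name its unit, and it was read as FPKM. Reads per unit of value scale with total reads, which alone does not settle the unit. The values also summed to between 554613 and 592526 per library and so not to a fixed total. Another 8 columns, means over pairs of libraries, were not used. RSEM divides reads shared by close copies and isoforms, and its transcript length estimates enter FPKM.

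Ratios were taken on FPKM without a pseudocount. Their 95% intervals used reads rounded to whole numbers, and fragments are not independent molecules. A gene was tested with at least 1 FPKM in either library and past the size rule at 1.5-fold with an interval that excludes 1. The ratio of ratios had an interval from the reads of 4 libraries on the log scale. The scripts were tested on simulated data. Members, lists and comparisons were chosen with earlier results of these data known. Named were all members, in each list the genes past the size rule in any comparison and the most abundant with vehicle, and the 3 genes most alike in pattern to members with a spread of at least 1.5. A gene of these lists that met the rule is counted but its values are not reported here. Genes below the size rule in those lists that are named, and ratios between genes, were chosen after their values were seen. Coordinates and promoter windows came from RefSeq for GRCm38.p6, where 6 of 7 members had a window. Alternatives were pseudocounts of 1 and 0.1, rescaling by the median ratio over 12728 genes, reads over total reads, 2-fold, and filters of 0 and 5 FPKM. Rescaled and read-based calls for members and for the pairs with amiodarone were added after seeing the data. Python 3.11.15, numpy 2.4.6, pandas 2.3.3 and scipy 1.17.1 were used.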

Additional observations from a re-analysis of the deposited data

Results flagged for a closer look

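In a few cases a drug went with a higher level in one pair of libraries and a lower level in the other, and with 1 library per group none of these differences was tested. For Ace, dabigatran went with a ratio of 1.16 (1.14 to 1.18) without amiodarone and 0.790 (0.778 to 0.803) with it, and both intervals exclude 1. For Bdkrb2 the ratios were 1.19 (0.942 to 1.49) without and 0.865 (0.687 to 1.09) with amiodarone, and for amiodarone 1.11 (0.880 to 1.39) without and 0.807 (0.641 to 1.02) with dabigatran. For Agt, dabigatran went with 1.12 (0.736 to 1.70) without and 0.837 (0.529 to 1.32) with amiodarone. The intervals of Bdkrb2 and Agt all include 1.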

How the results depend on the processing

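With 1 library per group no replicate could be left out, and no measure of the spread between mice can be had. No paired analysis was possible because each group has a single library. The median ratio over the 6 measurable members stayed within its counting range under every rescaling and pseudocount tried, although for amiodarone against vehicle it went from 1.03 to 0.985 by reads over total reads. Of 120 single ratios of members under an alternative, 5 left their counting interval, and all 5 were of Ace. Its ratio of amiodarone ratios of 0.679 was 0.662 after rescaling and 0.660 by reads. Rescaling also took Ace (1.54) and Agtr1a (1.53) past 1.5-fold for amiodarone against vehicle and Enpep (0.686) back inside it.

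The number of genes past the size rule depended on the rule. For amiodarone against vehicle the 1626 genes became 634 at 2-fold, 6662 beyond counting error at any size and 890 with at least 5 FPKM. The split of these calls turned with the rule, from 706 higher and 920 lower to 383 and 251 at 2-fold, 467 and 423 with at least 5 FPKM and 790 each after rescaling. For dabigatran against vehicle 318 became 92, 3822 and 74, and 515 with no filter. For the combination against amiodarone 537 became 166, 4799 and 230, and 809 with no filter. For the combination against dabigatran 1110 became 394, 5754 and 576, and against vehicle 1163 became 446, 5699 and 608. For the combination against amiodarone the split went from 292 higher and 245 lower to 252 and 283 after rescaling and 102 and 128 with at least 5 FPKM, and for the combination against dabigatran it went from 566 and 544 to 257 and 137 at 2-fold. The cause was not tested. The depth limits Agtr2, Agt and Bdkrb2 most.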
